A study of Mus musculus with 4 samples.

Results

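Aquaporins are membrane channels through which water, and for some members glycerol and other small solutes, crosses cell membranes along osmotic gradients. The gene family was followed in the septal nasal mucosa of young adult and aged mice through 10 of its genes, *Aqp1*, *Aqp2*, *Aqp3*, *Aqp4*, *Aqp5*, *Aqp6*, *Aqp7*, *Aqp8*, *Aqp9* and *Aqp11*. These symbols were chosen with earlier results of these data known. All non-control probes whose RefSeq accession belongs to them were then taken, irrespective of the probes' values. This gave 16 of 56605 probes and 10 of 45604 genes. In secretory epithelia, ion channels and transporters move salt across the cell layer and water follows through aquaporins in the basal and apical membranes. In the nose this fluid feeds the mucus that covers the cilia of the olfactory receptor neurons (ORNs), and Bowman's glands, sustentacular cells, basal cells and capillaries carry different members of the family.

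RNA came from male mice, C57BL/6J by the labels and C57BL/6 by the study's methods, 8 weeks old in the young group (the study's methods give 2 months) and 16 months old in the aged group, with no other treatment or allele in either. Each age was measured on 2 one-color arrays, and every array was hybridized with Cy3-labelled RNA pooled from 5 mice. The methods count fewer mice for gene analyses than separate pools would need and do not state whether pools share mice, so P-values here measure the spread between pools. The labels name the tissue as olfactory epithelium and the collection protocol as septal nasal mucosa, which also holds glands, vessels and connective tissue, and a stray label on silica aspiration of the lung was not used. All 8 markers of mature ORNs and all 7 of sustentacular cells were well above background by every probe on all 4 arrays. The arrays young 1 and aged 1 lay on the same slide, and young 2 and aged 2 on a slide each. Between 63.1% and 76.8% of non-control spots were well above background, which means that the scanner software placed them clearly over the local background, and the lowest share was that of aged 1. In a bulk tissue such as this, fewer cells of a type and less RNA per cell cannot be told apart.

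Start regions of 3 members are shown because these genes are the best known channels of capillaries (*Aqp1*), of basal epithelial membranes (*Aqp3*) and of gland cells (*Aqp5*), and because their probes were well above background on all 4 arrays. Each runs from 250 bases before to 50 bases after the RefSeq transcription start in GRCm38.p6, 5′ to 3′ on the gene's strand. Capitals mark matches on either strand to a TATA box (TATAAA) or a GC box (GGGCGG, written CCGCCC on the opposite strand).
Aqp1, chr6:55336049-55336348, plus strand: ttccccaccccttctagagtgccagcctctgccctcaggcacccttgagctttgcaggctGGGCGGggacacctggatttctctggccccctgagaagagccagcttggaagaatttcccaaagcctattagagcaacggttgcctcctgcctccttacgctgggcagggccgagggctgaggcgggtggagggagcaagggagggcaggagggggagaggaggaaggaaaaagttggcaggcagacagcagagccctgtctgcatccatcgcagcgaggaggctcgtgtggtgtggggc
Aqp3, chr4:41098134-41098433, minus strand: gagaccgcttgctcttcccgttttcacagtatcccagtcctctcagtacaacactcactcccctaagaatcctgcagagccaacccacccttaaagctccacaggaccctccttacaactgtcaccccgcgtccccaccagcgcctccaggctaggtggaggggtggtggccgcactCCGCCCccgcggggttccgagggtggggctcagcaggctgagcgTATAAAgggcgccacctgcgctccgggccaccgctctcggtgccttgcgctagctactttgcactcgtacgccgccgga
Aqp5, chr15:99590778-99591077, plus strand: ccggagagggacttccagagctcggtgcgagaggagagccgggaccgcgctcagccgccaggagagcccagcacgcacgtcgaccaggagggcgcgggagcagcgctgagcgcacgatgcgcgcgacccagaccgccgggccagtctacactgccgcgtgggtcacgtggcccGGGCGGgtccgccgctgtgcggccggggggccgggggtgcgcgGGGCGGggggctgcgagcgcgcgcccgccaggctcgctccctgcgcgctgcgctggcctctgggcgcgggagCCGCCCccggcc

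The *Aqp1* region held 1 GC box, beginning 190 bases before the start. The *Aqp3* region held a TATA box beginning 29 bases before the start and a GC box on the opposite strand beginning 73 bases before it. The *Aqp5* region was the richest of all member regions in G and C, at 79.7%, and held 3 GC boxes, of which 2 began 77 and 34 bases before the start and 1 lay after it on the opposite strand. G and C made up 62.7% of the *Aqp1* region and 64.0% of the *Aqp3* region, against a median of 52.7% over 32851 start regions of the same length. Start regions were found for 9 of the 10 members, 11 regions in all, with a G and C content from 41.3%. A TATA box was found in 1 of these 11 regions and in 13.6% of all regions, and a GC box in 3 of 11 against 35.7%. A CCAAT box (CCAAT) was found in 0 of 11 against 37.4%, and a cAMP response core (TGACG) in 1 of 11 against 20.8%. That 1 region was of *Aqp2*, whose match lay on the opposite strand and began 211 bases before the start. No match overlapped another, and a match is a description of these letters, not of a bound site.

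None of the 10 aquaporin genes passed the study's limits for a difference between ages. The call required P below 0.05 and a Benjamini-Hochberg false discovery rate (FDR) below 0.25 by limma over all genes, which 3.98% of all genes passed, 1.65% as higher and 2.33% as lower in aged mice, a background against which 0 of 10 is no result about the members. A differentially expressed gene (DEG) needed in addition a mean normalized intensity of at least 100 and a 1.5-fold change, and 0 of 10 members met this, against 0.814% of all genes as higher and 1.15% as lower. At an unadjusted P below 0.05, 2 of 10 members passed (*Aqp1* and *Aqp4*) against 13.1% of all genes. The 2 aged arrays did not overlap the 2 young arrays for 5 of 10 members, against 46.0% of all genes. Of these, *Aqp4*, *Aqp5* and *Aqp11* were above (24.2% of all genes) and *Aqp1* and *Aqp9* below (21.8%). The median log2 fold change (aged minus young) over the 10 members was -0.11, with 5 genes higher and 5 lower, against a median of 0.01 over all genes. An exact permutation test of 2 against 2 arrays cannot give a P below 0.333, so the evidence for a single gene comes from limma's fit across all genes.

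**Figure D1:**
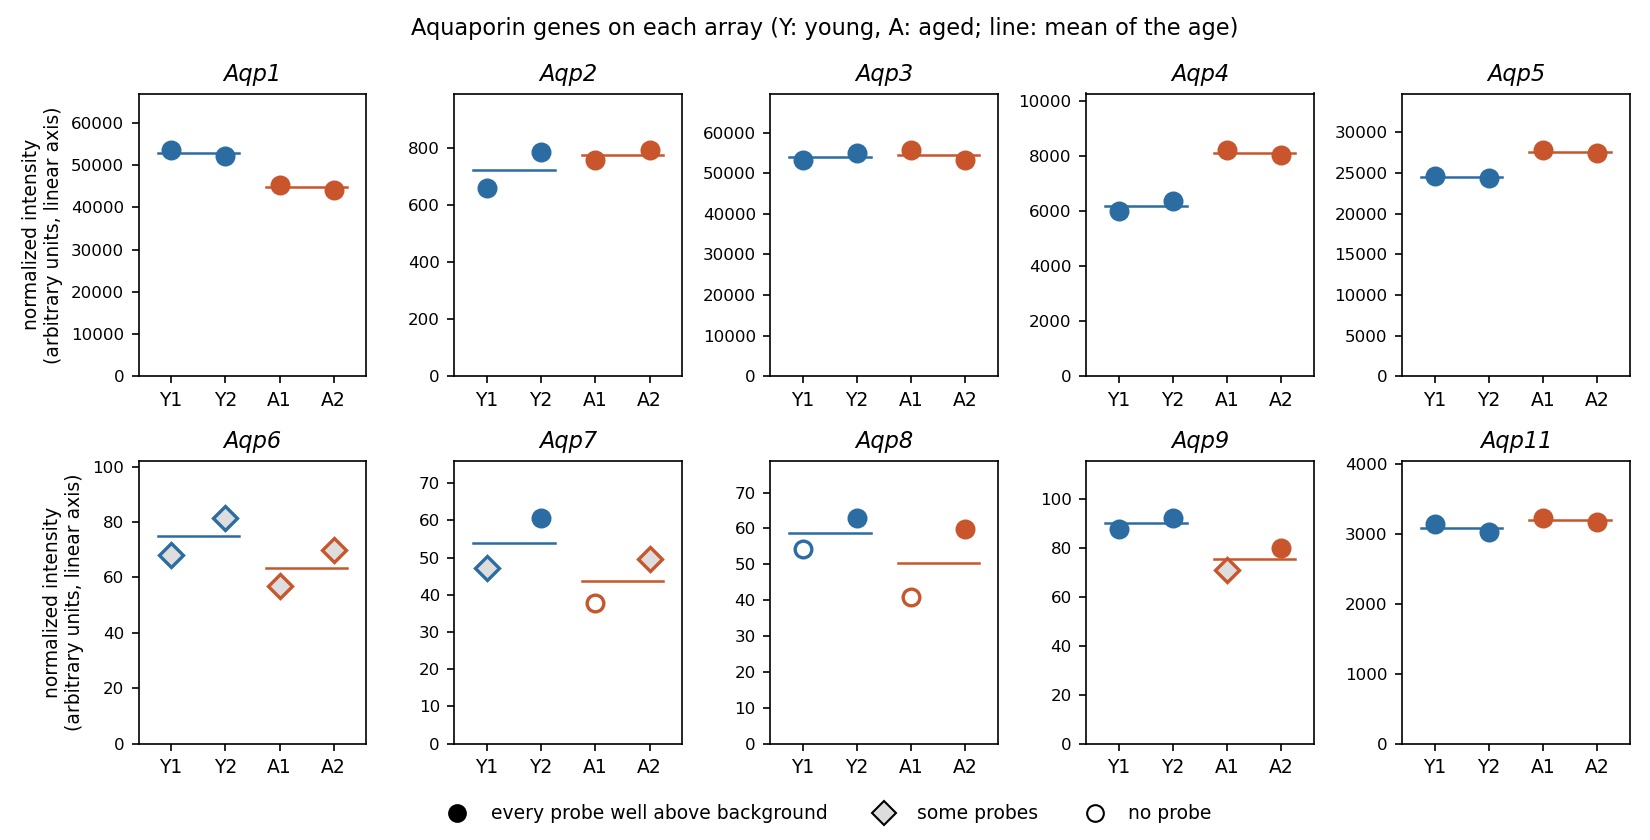
Normalized intensity (arbitrary units, linear axis from 0) of each aquaporin gene on the arrays young 1 (Y1), young 2 (Y2), aged 1 (A1) and aged 2 (A2), with a line at the mean of each age and the marker shape giving how many of the gene's probes were well above background. *Aqp4* and *Aqp5* sat higher and *Aqp1* lower on both aged arrays, and *Aqp6*, *Aqp7*, *Aqp8* and *Aqp9* had arrays on which some or all probes were not well above background.

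Among the water-selective channels, *Aqp4* showed the largest difference of the 10 members. It encodes the channel of astrocyte end feet, which is also known from the basolateral membranes of airway and gland epithelia. Its normalized intensity was 5997 and 6370 on the young arrays and 8229 and 8032 on the aged arrays. Both aged arrays lay above both young arrays, with means of 6184 ± 263 and 8131 ± 139 (SD, n = 2 pools each). The log2 fold change was 0.40 (SE 0.082, 95% interval 0.15 to 0.64), which is 31.5% higher in aged mice, with FDR = 0.264 by limma. This FDR missed the limit. *Aqp4* passed both limits under 8 alternative ways of processing, which called 5.11% to 24.2% of all genes, and under none of the others. With young 1, young 2, aged 1 or aged 2 left out its log2 fold change was 0.35 to 0.44 with FDR = 0.440 to 0.683 by limma, and in these fits 0 of all genes were called. Both probes were well above background on all 4 arrays. The brighter gave a log2 fold change of 0.47 and the dimmer 0.32. Before any correction, the brighter probe's spot signal was 10589 and 10284 on the young arrays and 13532 and 13747.5 on the aged arrays, so the ages were already separate in the scanned values. Within the slide that held both ages the log2 fold change was 0.46, and between the other arrays it was 0.33.

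*Aqp1*, the channel of capillary endothelium and red blood cells, was the member with the next smallest P, in the opposite direction. Its single probe gave 53603 and 52227 on the young arrays and 45387 and 44136 on the aged arrays. The groups did not overlap, with means of 52915 ± 973 and 44762 ± 885 (SD, n = 2 pools each). The log2 fold change was -0.24 (SE 0.077, 95% interval -0.47 to -0.01), a difference of -15.4%, with FDR = 0.364 by limma. It was -0.24 within the shared slide and -0.24 between the other arrays. The scanned signal ran in the same order, at 58251 and 51069 on the young arrays and 43357 and 43124.5 on the aged arrays, over local backgrounds between 31 and 68.

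*Aqp5* encodes the apical water channel of serous gland cells and of the acini of salivary and lacrimal glands. Its normalized intensity was 24646 and 24326 on the young arrays and 27827 and 27430 on the aged arrays. The aged arrays lay above the young ones, with means of 24486 ± 226 and 27629 ± 281 (SD, n = 2 pools each). The log2 fold change was 0.17 (SE 0.074, 95% interval -0.05 to 0.40), or 12.8% higher, with FDR = 0.458 by limma, and the interval covers 0. The probes gave 0.12 (brighter) and 0.23 (dimmer). For the brighter probe, the normalized values did not overlap (56902 and 53216 against 59770 and 59774), whereas its scanned signals did (61611.5 and 51803 against 57693.5 and 58677). For the dimmer probe the scanned signals did not overlap, at 11786 and 10658 on the young arrays and 12501 and 12410.5 on the aged arrays.

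*Aqp2*, the vasopressin-regulated channel of the kidney collecting duct, was well above background on all 4 arrays. Its single probe gave 661 and 786 on the young arrays and 760 and 794 on the aged arrays, so that the groups overlapped. The log2 fold change was 0.11 (95% interval -0.26 to 0.48, FDR = 0.749 by limma), 0.20 within the shared slide and 0.02 between the other arrays, and it was -0.02 without young 1. Of 5 other markers of the collecting duct and of the kidney, *Atp6v1b1* and *Foxi1*, which belong to acid-secreting cells of several epithelia, were above background. *Avpr2*, which encodes the vasopressin receptor of the collecting duct, *Umod* and *Slc12a1* stayed near background on all 4 arrays. Of the 6 genes, 0 were called.

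*Aqp6* and *Aqp8* were measured at low signal. *Aqp6* encodes a channel of intracellular vesicles in acid-secreting kidney cells that also passes anions, and *Aqp8* a channel of the colon, pancreas and liver. *Aqp6* gave 68.1 and 81.6 on the young arrays and 57.0 and 70.0 on the aged arrays. Its brighter probe was well above background on all 4 arrays and its dimmer probe on none, and the arrays overlapped between ages (log2 fold change -0.24, 95% interval -0.74 to 0.26, FDR = 0.618 by limma). *Aqp8* gave 54.2 and 63.0 on the young arrays and 40.9 and 59.9 on the aged arrays, while its probe was well above background on young 2 and aged 2 only. Its log2 fold change was -0.24 (95% interval -0.95 to 0.48, FDR = 0.716 by limma), at -0.40 within the shared slide and -0.07 between the other arrays, and it was 0.04 without aged 1. This interval covers 0 and also a 1.5-fold lower level in aged mice.

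The aquaglyceroporins pass glycerol as well as water. *Aqp3* is the member of basal epithelial membranes, including those of airway basal cells and of skin. Its single probe gave 53219 and 54927 on the young arrays and 55701 and 53219 on the aged arrays, so that the groups overlapped. The log2 fold change was 0.01 (SE 0.080, 95% interval -0.23 to 0.25, FDR = 0.966 by limma), an interval that lies inside 1.5-fold in both directions.

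*Aqp7*, the glycerol channel of adipocytes, gave 47.3 and 60.8 on the young arrays and 37.9 and 49.7 on the aged arrays. The groups overlapped, and the log2 fold change was -0.30 (95% interval -0.95 to 0.34, FDR = 0.621 by limma). Its brighter probe was well above background on all arrays except aged 1 and its dimmer probe on young 2 only. *Aqp9*, a channel for water and small neutral solutes in liver and leukocytes, gave 87.7 and 92.3 on the young arrays and 71.0 and 79.8 on the aged arrays. Both aged arrays lay below both young ones, with a log2 fold change of -0.26 (95% interval -0.56 to 0.05, FDR = 0.432 by limma). The brighter *Aqp9* probe was well above background on all 4 arrays, and the dimmer was not on aged 1.

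*Aqp11* is a distant member of the family that resides in the endoplasmic reticulum. It gave 3143 and 3026 on the young arrays and 3239 and 3175 on the aged arrays. The aged arrays lay above the young ones by little, with a log2 fold change of 0.06 (95% interval -0.17 to 0.29, FDR = 0.790 by limma), and its probes gave 0.08 and 0.04. The array also held 1 probe each for *Mip*, the aquaporin of the lens, and *Aqp12*, which is known from pancreatic acinar cells. Neither stood well above background on even 1 array, and their values lay between 12.4 and 39.0.

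**Figure D2:**
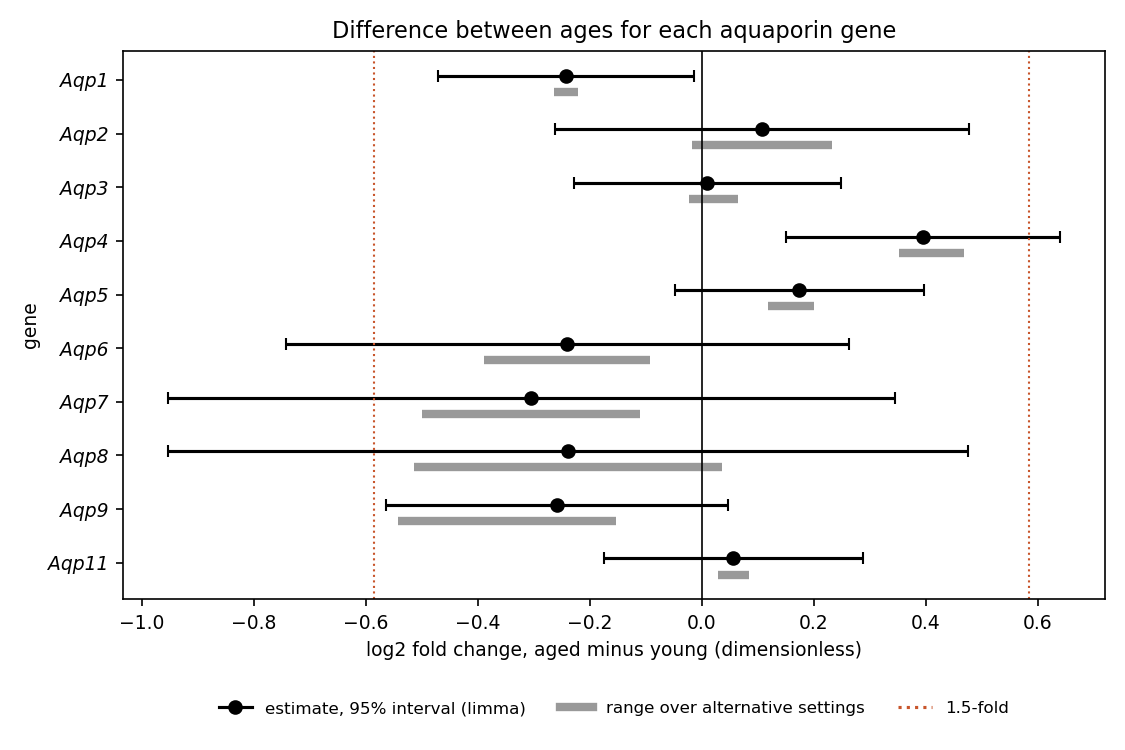
Log2 fold change (aged minus young, horizontal axis, dimensionless) of each aquaporin gene, with limma's 95% interval as a black bar, the range over the alternative processing settings as a gray bar and dotted lines at 1.5-fold. The intervals of *Aqp4* and *Aqp1* lie to either side of 0 and the other 8 cover 0, and the intervals of *Aqp7* and *Aqp8* are the widest.

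Signal over background limited 4 members. For *Aqp1*, *Aqp2*, *Aqp3*, *Aqp4*, *Aqp5* and *Aqp11* every probe was well above background on all 4 arrays, and for *Aqp6*, *Aqp7*, *Aqp8* and *Aqp9* at least 1 probe was not on at least 1 array. The log2 fold changes of these 4 genes moved with single arrays. With 1 array left out, *Aqp6* ranged from -0.39 (without aged 2) to -0.09 (without aged 1), *Aqp7* from -0.50 (without aged 2) to -0.11 (without aged 1), *Aqp8* from -0.51 (without aged 2) to 0.04 (without aged 1) and *Aqp9* from -0.34 (without aged 2) to -0.17 (without aged 1). All 4 genes had lower values on young 1 than on young 2 and on aged 1 than on aged 2. This order was not particular to them, as *Aqp2*, well above background on all 4 arrays, had it too. The log2 fold change of *Aqp2* ranged from -0.02 (without young 1) to 0.23 (without young 2). The arrays young 1 and aged 1, which share a slide, had median local backgrounds of 67 and 63, against 32 and 39 on young 2 and aged 2, and the part of this in the values of the 4 genes was not tested. Of the 16 probes, 11 were well above background on all 4 arrays, 1 on none, and 0 carried an outlier flag. In all 6 genes with 2 probes, both probes had the same sign. Intensities of different probes depend on their sequences, so no order of abundance between the 10 genes was taken from these arrays.

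**Figure D3:**
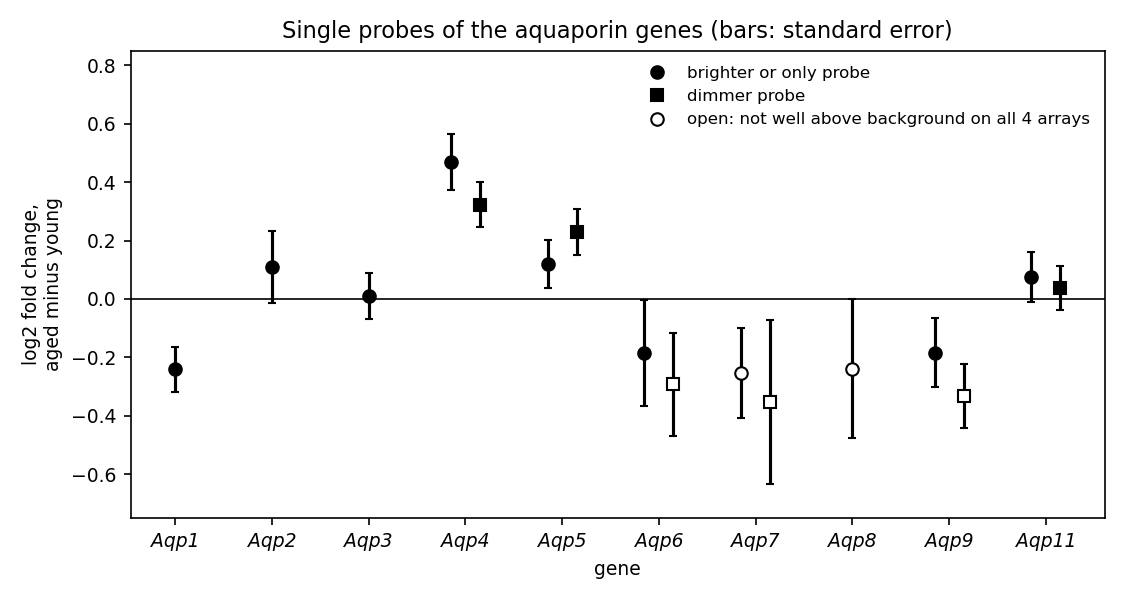
Log2 fold change (aged minus young) of each of the 16 aquaporin probes with limma's standard error, by gene, with circles for the brighter or only probe, squares for the dimmer probe and open symbols for probes not well above background on all 4 arrays. The probes of *Aqp4* (0.47 and 0.32) and of *Aqp5* (0.12 and 0.23) lie above 0 and those of *Aqp6*, *Aqp7* and *Aqp9* below.

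Several aquaporin genes lie side by side in the genome. In the RefSeq order of GRCm38.p6, *Aqp2*, *Aqp5* and *Aqp6* follow each other on chromosome 15 between *Faim2* and *Racgap1*, and their log2 fold changes were 0.11, 0.17 and -0.24. *Aqp7* and *Aqp3* are neighbors on chromosome 4, with -0.30 and 0.01. The outer neighbors had log2 fold changes of 0.07 (*Faim2*), -0.26 (*Racgap1*), 0.03 (*Nfx1*, beside *Aqp7*) and 0.13 (*Nol6*, beside *Aqp3*). *Aqp1* on chromosome 6 stood between *Mindy4* (-0.05) and *Ghrhr* (-0.84). No aquaporin gene and no neighbor was called in these blocks.

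Marker genes of some of the mucosa's cell types differed between ages. The values of several aquaporins are given beside those of cells known to carry them. Of 12 gland markers, 6 were called lower and 1 higher in aged mice, with a median log2 fold change of -0.50. The secretory proteins *Pip* (-2.40) and *Muc5ac* (-2.10) were among the former, and the mucin *Muc5b* (0.44) was the latter. Counted without the call, 9 of the 12 were lower and 3 higher. These 3 were *Muc5b*, *Bpifb1* (0.46, not called) and *Bpifa1* (0.19, not called). Among the lower genes, *Obp2a* (-0.33), *Lyz2* (-0.26) and *Sox10* (-0.07) were not called, while *Dcpp1* (-1.13), *Dcpp2* (-1.47) and *Dcpp3* (-1.46) were. The summed intensity of the list was 860865 to 875422 on the young arrays and 762373 to 780463 on the aged arrays, and its member *Ltf* is a neutrophil gene as well. On the log2 scale the list's mean difference was -0.73, and *Aqp5*, at 0.17, differed from it by 0.91 (0.88 to 0.93 over the 4 pairs of a young and an aged array). The exact permutation P of this and each of the following 8 differences was 0.333, the smallest that 4 arrays allow. Sustentacular cells also carry AQP5, and of their 7 markers 1 was called higher, the cytochrome *Cyp1a2* (0.54), and 0 lower. Without regard to the call, 6 of the 7 were higher and 1 lower, *Sult1c1* (-0.26, not called). The sums were 409490 to 423042 on the young and 445454 to 449138 on the aged arrays. *Aqp5* differed from the mean of this list (0.12) by 0.05 (0.04 to 0.07), and *Aqp4* by 0.27 (0.20 to 0.35). AQP4 is known from gland epithelia as well, but *Aqp4* was not set beside the gland list.

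Of 9 endothelial markers, 6 were called lower and 0 higher, from *Tie1* (-0.84) to *Pecam1* (-0.33, not called). Their summed intensity was 22653 to 23089 on the young arrays and 15301 to 15355 on the aged arrays. *Aqp1*, at -0.24, lay 0.33 above the mean of this list (-0.58), with a range of 0.30 to 0.37 over the pairs of arrays. Red blood cells carry AQP1 as well, and 0 of 7 erythroid markers was called. Their sums were 30798 to 32061 on the young and 25799 to 26736 on the aged arrays. *Epb42* and *Rhag* never stood well above background, and the list was carried by the globins *Hba-a1* (-0.28) and *Hbb-bt* (-0.22). *Aqp1* lay below the mean of the erythroid list (-0.16) by a log2 difference of -0.09 (-0.12 to -0.05). Of 7 fibroblast markers, 4 were called lower, among them the collagen gene *Col1a1* (-1.98). *Dcn* (-0.19), *Pdgfra* (-0.29) and *Thy1* (0.03) were not called. *Aqp1* lay 0.70 above the mean of the fibroblast list (0.68 to 0.73). The part of these cells in the *Aqp1* difference was not tested.

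Of 6 horizontal basal cell markers, the keratins *Krt15* (-0.82) and *Krt5* (-0.49) were called lower and 0 higher. Without regard to the call, 5 of the 6 were lower and 1 higher, *Trp63* (0.05, not called). The sums were 46653 to 46950 on the young and 34347 to 35235 on the aged arrays. *Aqp3* lay 0.38 above the mean of this list (-0.37), with a range of 0.35 to 0.41. Of 9 neutrophil markers, 5 were called lower, led by *S100a9* (-1.08), and the sums were 267437 to 278675 on the young and 165148 to 174725 on the aged arrays. *Ltf*, counted with the gland markers as well and 1 of the 5 calls, made up most of these sums, at 265972 and 254071 on the young and 167851 and 158251 on the aged arrays. *Aqp9* lay 0.37 above the mean of that list (-0.63), with a range of 0.24 to 0.49. Of 7 adipocyte markers, 1 was called higher, *Cfd* (0.64), and 0 lower, while *Fabp4* had -0.53 and was not called. *Adipoq*, *Plin1*, *Cidec* and *Retn* were not well above background on at least 2 of the arrays, so the list's mean rests in part on values near background. *Cfd* was also low, at a mean of 60.9, with 1 of its 2 probes well above background on young 1, aged 1 and aged 2. *Aqp7* lay below the list's mean (0.04) by a log2 difference of -0.34 (-0.57 to -0.12). In each of these comparisons the log2 values of the list and the member were measured on the same 4 arrays.

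**Figure D4:**
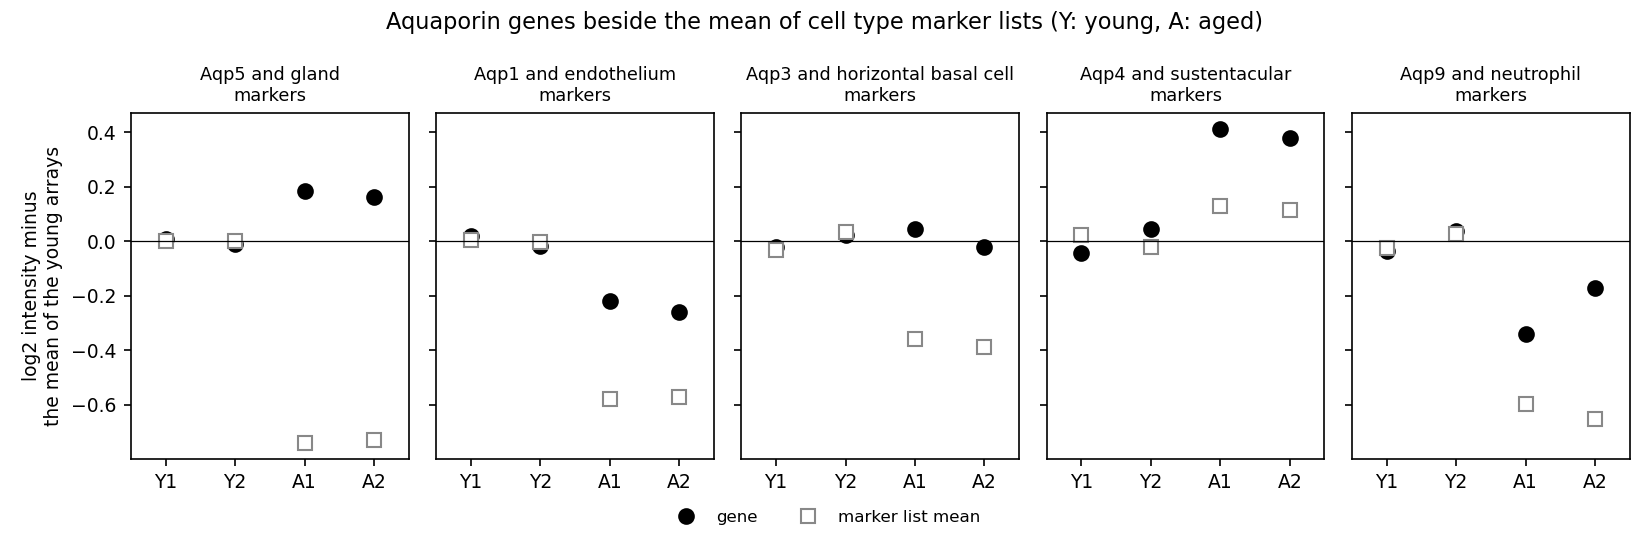
Log2 intensity minus the mean of the young arrays (vertical axis) on each array (Y1 and Y2 young, A1 and A2 aged) for an aquaporin gene (filled circles) and for the mean of a marker list of a cell type known to carry it (open squares). The aged arrays of *Aqp5* lie above 0 and those of the gland list below it, and those of *Aqp1*, *Aqp3*, *Aqp4* and *Aqp9* lie above those of the endothelial, horizontal basal cell, sustentacular and neutrophil lists drawn with them.

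The genes that move salt ahead of the water and those that place or regulate aquaporins were described from 6 lists with 65 measured genes. Of these, 5 genes (7.69%, against 3.98% of all genes) were called, 2 as higher and 3 as lower in aged mice. In all, 46 of the 65 were lower (48.5% of all genes were) and 19 higher, with a median of -0.08 against 0.01 over all genes, and 17 passed an unadjusted P below 0.05 (13.1% of all genes). With any of the 4 arrays left out (young 1, young 2, aged 1 or aged 2), 0 of the 65 genes and 0 of all genes were called, with a smallest FDR of 0.404 to 0.683 by limma, so these fits say nothing about the 65 genes in particular.

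Among 9 potassium channel genes of secretory epithelia, 2 were called lower and 0 higher, and all 9 had negative log2 fold changes (median -0.26). *Kcnn4*, the calcium-activated channel that keeps the driving force for chloride secretion, gave 2572 and 2635 on the young arrays and 1295 and 1385 on the aged arrays. It fell by 0.96 on the log2 scale (SE 0.083, FDR = 0.178 by limma). *Lrrc26*, a subunit that lets the large-conductance potassium channel open at rest in secretory cells, gave 13209 and 13664 on the young arrays and 8606 and 8648 on the aged arrays. It fell by 0.64 (SE 0.076, FDR = 0.193 by limma), and both genes were DEGs. *Kcnj10*, the potassium channel that accompanies AQP4 in glial end feet, gave 2689 and 2523 on the young and 2191 and 2149 on the aged arrays and was not called (-0.26, FDR = 0.360 by limma); it was chosen for this partnership after its values were seen.

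Among 15 genes of sodium absorption and the sodium pump, 1 was called higher and 1 lower. *Fxyd3*, a regulatory subunit of the pump in epithelia, gave 8448 and 8919 on the young arrays and 4899 and 4877 on the aged arrays. It fell by 0.83 (SE 0.080, FDR = 0.183 by limma) and was a DEG.

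Among 13 genes of chloride and bicarbonate secretion, 1 was called higher and 0 lower (median -0.06). *Slc26a9*, a chloride channel of airway epithelium, gave 306 and 286 on the young arrays and 413 and 435 on the aged arrays. It rose by 0.52 (SE 0.087, FDR = 0.232 by limma). The basolateral cotransporter *Slc12a2*, which loads secretory cells with chloride, had a log2 fold change of -0.06 (95% interval -0.31 to 0.19). The calcium-activated chloride channel *Ano1* had -0.16 (-0.45 to 0.13). Neither of these was called.

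In the remaining 3 lists 0 genes were called by limma. The vasopressin and muscarinic list (11 genes, median -0.05) was represented by the protein kinase A catalytic subunit *Prkacb* (log2 fold change 0.03, 95% interval -0.22 to 0.29) and the kinase anchor *Akap7* (-0.03, -0.35 to 0.30), and its receptors *Avpr1b* and *Avpr2* never stood well above background. In the list of anchoring and dystroglycan complex genes, which hold AQP4 at end feet and link membranes to the cytoskeleton, 8 of 9 log2 fold changes were negative (median -0.12), with *Ezr* at -0.03 and *Dag1* at -0.24 (95% interval -0.57 to 0.10). Of 8 genes of glycerol handling (median -0.03), the lipases *Pnpla2* and *Mgll* had log2 fold changes of -0.02 (-0.25 to 0.20) and 0.22 (-0.03 to 0.46).

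**Figure D5:**
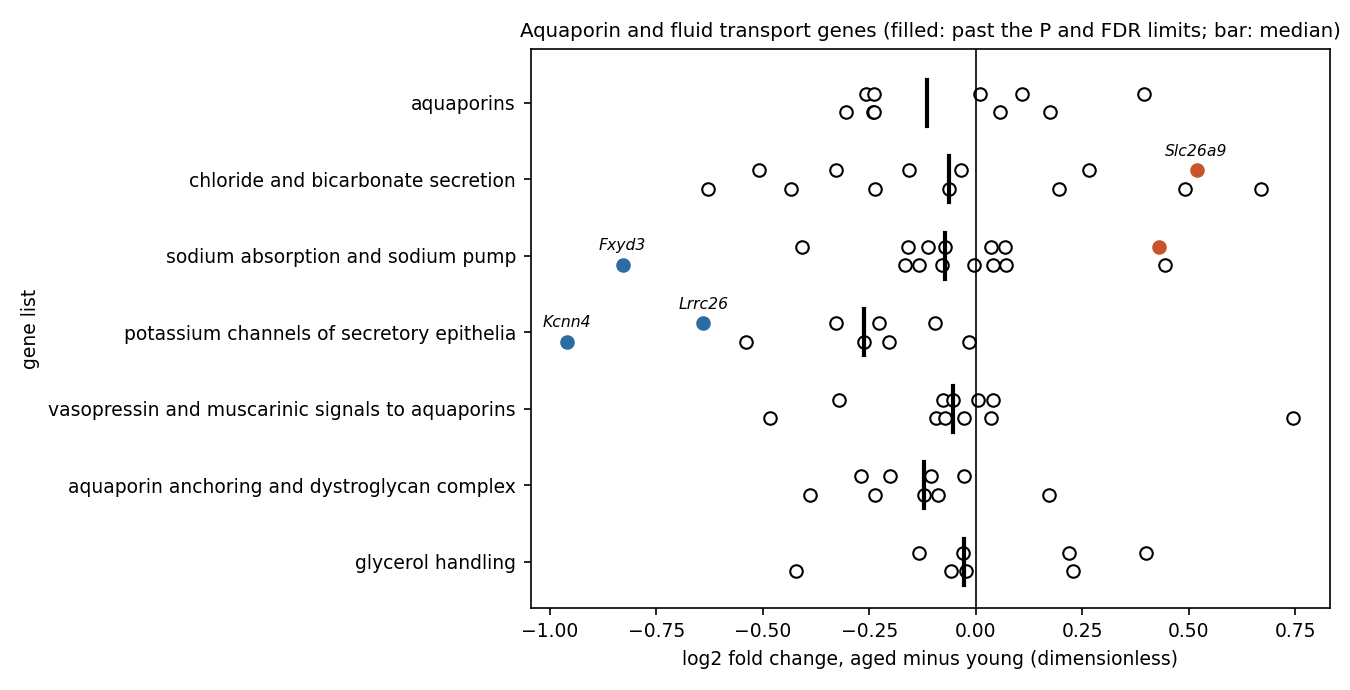
Log2 fold change (aged minus young, horizontal axis, dimensionless) of the 10 aquaporin genes and of 65 fluid transport genes by list, each circle a gene, with names at the called genes described in the text, filled where P was below 0.05 and FDR below 0.25, with a bar at each list's median. *Kcnn4*, *Lrrc26* and *Fxyd3* are filled on the lower side and *Slc26a9* on the higher side, and none of the aquaporins is filled.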

How the data were processed

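Septal nasal mucosa RNA from 2 pools of 5 mice per age was hybridized to 1-color Agilent arrays. The authors deposited, per the file headers, median spot intensity, median local background intensity, a processed intensity and flags from Feature Extraction 11.0.1.1, without normalization between arrays. The submitters' notes also name R 3.2.1. The series' value table equalled the processed intensity on all 62976 spots. No spot was saturated.

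Here, normexp (offset 0) background correction was run in limma 3.58.1 (R 4.3.3). Control spots and outlier-flagged spots (88 to 118 per array) were left out, spots were averaged per probe, values were quantile normalized, and probes were averaged per gene on the log2 scale. Accessions matched a RefSeq table (GRCm38.p6) for 32994 of 56605 probes (58.3%), and the array design names another build. Ages were compared by lmFit and eBayes without covariates, after the fit was tested on simulated data. The main limits follow the study's methods, which name no background method. Start regions are from RefSeq.

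The members, the gene and 14 marker lists were chosen with earlier results of these data known. Some listed genes are not reported here. Named were all members, up to 3 called genes per pathway list by size and, where fewer than 2 passed, the 2 of highest mean. The number of arrays limits the precision. Alternatives concerned background, signal, normalization, flags, dim probes, probe choice, variance trend, replicate number, slide, omitted arrays and limits.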

Additional observations from a re-analysis of the deposited data

How the results depend on the processing

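None of the 10 aquaporin genes was called in the main analysis, where 3.98% of all genes were. *Aqp4* was called higher, as 1 aquaporin gene, with a normexp offset of 16 (6.55% of all genes called), without background correction (8.83%), with the processed signal quantile normalized (9.59%), with cyclic loess (5.11%) and with the most intense probe per gene (5.30%). An offset of 50 called 2 (*Aqp4* higher and *Aqp1* lower, with 4582 of all genes called). An intensity trend in eBayes called 3 (with *Aqp5* higher, 15.6% of all genes). Leaving out dim probes called 4 of the 9 members that kept a probe (with *Aqp9* lower, 24.2% of all genes). Scaling to the 75th percentile, with or without the processed signal, and keeping flagged spots called 0. With 1 array left out or the replicate block, 0 of all genes were called, and stricter FDR limits could only lower a count of 0, so these say nothing about stability. The FDR of *Aqp4* ranged from 0.0068 to 0.683. No aquaporin gene was a DEG under the background, signal, scaling, flag, dim-probe, probe-choice or trend alternatives. The aquaporin median of -0.11 over 10 members was 0.010 without dim probes, but over 9 members, as *Aqp8* was then left out. With 1 array left out the median over the 10 members ranged from -0.12 to 0.0066 (the highest without aged 1). Single values that changed sign were *Aqp2* (-0.017 without young 1, to 0.23 with other arrays left out), *Aqp3* (-0.0068 with cyclic loess, -0.013 without young 1 and -0.023 without aged 1, to 0.043) and *Aqp8* (0.036 without aged 1, down to -0.51). The causes were not tested.

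The 5 called fluid transport genes became 13 (offset 16), 16 (offset 50), 14 (no background correction), 16 (processed signal, quantile), 10 (cyclic loess), 23 (dim probes left out), 12 (most intense probe) and 22 (intensity trend), while the share of all genes called rose to between 5.11% and 24.2%. Their count ranged from 0 to 0 with each array left out. The replicate number as a block called 0 of 65 and 0 of 10, with 0 called of all genes and a smallest FDR of 0.433. Deviations of arrays with the same number had a correlation of -0.078, which did not meet the bar for treating the numbers as pairs, although arrays with the number 1 share a slide. Because the block called 0 of all genes, it says nothing about the aquaporins in particular. A random slide block could not be fitted with 4 arrays and was not run.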

Other observations

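Of the marker lists not set beside an aquaporin gene, some held called genes and others did not. All 8 mature ORN markers had positive log2 fold changes (23474 of all 45604 genes did), with a median of 0.20. Only 1 of them, *Stoml3*, was called (0.43), and *Omp* was not (0.15, FDR = 0.549 by limma). In histology of other mice the study counted fewer OMP-positive mature ORNs in aged septal epithelium, a measure of cells and not of RNA. Of 7 Schwann and ensheathing cell markers, 4 were called lower, among them the myelin gene *Mbp* (-0.52). Of 6 ciliated cell markers, 0 were called by limma, with log2 fold changes from -0.37 (*Dnah5*) to 0.20 (*Ccdc39*). Of 5 salivary acinar markers, 2 were called lower, the proline-rich protein gene *Prpmp5* (-1.16) and the secretory cell factor *Bhlha15* (-1.08), while the amylase gene *Amy1* (0.17) and *Smgc* (0.18) were not called and *Prol1* never stood well above background. Of 6 pituitary markers, 2 were called higher, the hormone genes *Prl* (4.96) and *Gh* (3.15), and the summed intensity of that list was 1142 to 1214 on the young arrays and 9284 to 9805 on the aged arrays. *Dnai1*, *Ahsp* and *Muc19* of the lists had no matched probe.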
